A study of Mus musculus with 8 samples.

Results

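The mitochondrial ribosomal protein genes are the nuclear genes whose products, made in the cytosol and imported, build the ribosome inside mitochondria. Members were all protein-coding genes of the mouse annotation named Mrpl or Mrps followed by a number and at most 1 letter. This rule uses names and no values, but earlier results of these data were known when it was chosen. The annotation holds 78 of them, and 77 of the 23369 genes in the count table were members; Mrpl53 was not analysed here. They were measured in neutrophils of the spinal cord, sorted from C57BL/6N mice as cells positive for CD45, CD11b and Ly6G. Every mouse had induced experimental autoimmune encephalomyelitis (EAE), an autoimmune inflammation of the central nervous system used as a model of multiple sclerosis. RNA was sequenced from 4 samples collected at zeitgeber time 1 (ZT1, 1 hour after lights-on) and 4 at ZT13, so the single comparison is between early light and early dark phase within inflamed tissue. No sample from a mouse without EAE and no neutrophils from blood or marrow were part of these data, and the labels give neither the age of the mice nor animal identifiers, so p-values measure the spread between these samples.

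The mitochondrial ribosome (mitoribosome) translates only the mRNAs of the mitochondrial genome, which encode core membrane subunits of the respiratory chain and of ATP synthase. It has a large subunit (Mrpl genes), which forms peptide bonds, and a small subunit (Mrps genes), which reads the mRNA. Some proteins have counterparts in bacterial ribosomes and others arose in the mitochondrial lineage. Neutrophils hold few mitochondria and draw most of their energy from glycolysis.

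Libraries held 46152067 to 67873023 counts, and every member had a count in every library. All 77 members passed the filter on low counts that kept 12610 genes, so all were in the main test. The members summed to between 0.104% and 0.138% of the counts of a library. Levels are given as CPM, counts scaled to library size. The 18 neutrophil markers were detected, with the sort marker Itgam (CD11b) at 482 ± 16.8 CPM (SD, n = 4) at ZT1 and 488 ± 14.9 at ZT13. Between ZT1 and ZT13, Ly6g differed by 0.39 ± 0.18 (SE) in log2 CPM (369 ± 108, then 485 ± 24.2 CPM) and Ptprc (CD45) the other way (1816 ± 144, then 1602 ± 56.0, -0.18 ± 0.08). The sum of the 18 markers ranged from 143297 to 184839 CPM at ZT1 and from 186631 to 234738 at ZT13, without overlap. Its part in the differences described here was not tested. Ngp, S100a9 and Ltf were the most abundant of the 18 and weigh most in the sum. Estimates at ZT13 were higher for 13 of the 18 and lower for 5 (47.7% of all tested genes were higher). Summed markers of microglia and macrophages (1065 to 1685 CPM at ZT1, 918 to 1543 at ZT13) and of monocytes and dendritic cells (3160 to 4270, 2945 to 4379, with Clec9a and Xcr1 at 0 at ZT13) overlapped between the times. Those of T and NK cells (9.16 to 19.9 CPM at ZT1, 10.8 to 22.2 at ZT13) and B cells (136 to 249, 154 to 194) overlapped as well. So did those of glia and neurons (107 to 168, 113 to 221) and of endothelial and erythroid cells (13.8 to 24.3, 14.4 to 38.9). Of these lists, Prf1, Igkc and Snap25 were at 0 at ZT13. Most tested markers of their lists went the other way, with higher estimates at ZT13 for 4 of 6 T and NK, 2 of 3 B, and 3 of 4 glia and neuron markers. Single markers differed at an unadjusted p under 0.05 in edgeR (9.2% of all genes in either direction). Of 17 tested microglia and macrophage markers 1 was lower at ZT13, and of 11 monocyte and dendritic cell markers 1 was higher and 1 lower. Of T and NK markers 1 was lower, of B cell markers 1 higher, and of 5 endothelial and erythroid markers 2 higher. Detected genes numbered 16891 ± 815 (SD, n = 4) at ZT1 and 14909 ± 766 at ZT13. In bulk RNA, fewer cells of a type and less RNA per cell cannot be told apart.

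The promoters of the members are shown first because nuclear respiratory factor 1 (NRF1), ETS factors of the GABPA type and YY1 are textbook activators of nuclear genes for mitochondrial proteins. In the RefSeq table for GRCm38.p6, 69 members had a promoter running from 250 bases before to 50 bases after the start. The letters CCGGAAGT (ETS), AANATGGCG (YY1) and a 10-base NRF1 pattern (GCGC, A, any base, GCGC) were searched on both strands. The ETS letters were in 12 promoters (17.4%; 10.1% of the promoters of all tested protein-coding genes), the NRF1 letters in 13 (18.8%; 12.4%) and the YY1 letters in 11 (15.9%; 6.56%). TATAAA was in 5 (7.25%; 8.26%). A match describes letters and is not a measured binding site. The stretches below run 5′ to 3′ from 150 bases before the RefSeq start into at most the first 30 bases of the transcript, with matches in capitals. Mrpl33 has the most abundant member mRNA and an ETS match next to its start; Mrps22 has an ETS match as well, and its levels did not overlap between the times; Mrpl45 has 3 NRF1 matches; Mrps14 and Mrpl34 are among the members with the smallest p and have no match in the stretch. The last of the Mrpl45 matches lies on the opposite strand, so its letters are printed as the reverse complement. The promoter of Mrpl18, which holds the ETS letters, is not printed because the stretch before its start overlaps annotated exons.
Mrpl33, chr5:31613801-31613968, plus strand: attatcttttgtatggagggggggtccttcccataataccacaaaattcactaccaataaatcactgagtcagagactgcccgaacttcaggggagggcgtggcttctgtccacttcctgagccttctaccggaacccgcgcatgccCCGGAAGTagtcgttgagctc
Mrps22, chr9:98601650-98601829, minus strand: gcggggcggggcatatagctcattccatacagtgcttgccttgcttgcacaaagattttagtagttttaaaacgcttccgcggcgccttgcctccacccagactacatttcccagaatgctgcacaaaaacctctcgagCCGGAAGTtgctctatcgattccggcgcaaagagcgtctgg
Mrpl45, chr11:97315566-97315745, plus strand: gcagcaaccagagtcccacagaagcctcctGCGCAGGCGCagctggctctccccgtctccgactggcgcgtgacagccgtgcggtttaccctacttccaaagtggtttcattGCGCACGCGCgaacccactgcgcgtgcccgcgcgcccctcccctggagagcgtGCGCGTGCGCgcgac
Mrps14, chr1:160195065-160195244, plus strand: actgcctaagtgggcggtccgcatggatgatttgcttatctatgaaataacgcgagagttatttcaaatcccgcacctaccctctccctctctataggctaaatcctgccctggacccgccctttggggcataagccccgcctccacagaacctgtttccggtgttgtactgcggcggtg
Mrpl34, chr8:71464776-71464955, plus strand: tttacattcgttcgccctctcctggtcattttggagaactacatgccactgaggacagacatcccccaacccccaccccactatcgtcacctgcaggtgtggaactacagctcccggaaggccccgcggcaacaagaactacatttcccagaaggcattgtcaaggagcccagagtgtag
Matches and differences between the times were set side by side. The 12 members with the ETS letters had a median log2 fold change for ZT13 over ZT1 of 0.29, against 0.27 for the other 56 members tested. The medians were 0.19 for 13 members with the NRF1 letters and 0.30 for 55 without, and 0.13 for 11 with the YY1 letters and 0.30 for 57 without. Members with NRF1 or YY1 letters thus had the lower medians. These are descriptions without a test.

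Levels were compared between genes as CPM per kilobase of the median protein-coding transcript, averaged over the 8 libraries. The median member stood at 8.68 CPM per kilobase, close to the 8.32 of all tested protein-coding genes. The cytosolic ribosomal protein genes, which build the ribosome for nuclear mRNAs, had a median of 43.8 and the nuclear genes of oxidative phosphorylation, the respiratory chain that the mitoribosome helps to supply, 71.9. Mitochondrial translation factors (3.16) and mitochondrial aminoacyl-tRNA synthetases (3.19), which charge the tRNAs, were below the mitoribosome. By these medians the mitoribosomal mRNAs stood above those of the translation factors and synthetases and below those of the nuclear genes of oxidative phosphorylation.

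Within the mitoribosome, levels spanned from 0.834 to 204 CPM per kilobase, and 70 of 77 members lay between 2 and 50. Large subunit genes had a median of 11.0 (quartiles 6.76 and 25.2) and small subunit genes 6.52 (3.16 and 19.8), so the ranges of the subunits overlapped widely. Highest in the large subunit were Mrpl33 (204), Mrpl20 (59.7) and Mrpl4 (48.6), all with counterparts in bacteria. In the small subunit Mrps21 (74.9), Mrps15 (34.0) and Mrps18c (26.7) led. The lowest were Mrpl47 (0.834) and Mrpl23 (1.98), both at the exit of the peptide tunnel, and Mrps6 (1.20) and Mrps25 (1.45). These places depend on the length used. The annotated exons of Mrpl33 together cover 7326 bases, against 478 for its median coding transcript. Per kilobase of all exons it stood at 13.3, below the 41.0 of Mrps21. By the same measure Mrpl20 stood at 17.7, below the 26.4 of Mrpl18, and Mrps25 at 1.34, above the 0.840 of Mrps10. Of the 6576 exon bases of Mrps25, 4590 are shared with Nr2c2 on the opposite strand. Length enters the unit itself, so the Spearman correlation of level per kilobase with length (-0.64 over 77 members) is in part built in; that of plain CPM with length was -0.13.

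**Figure D1:**
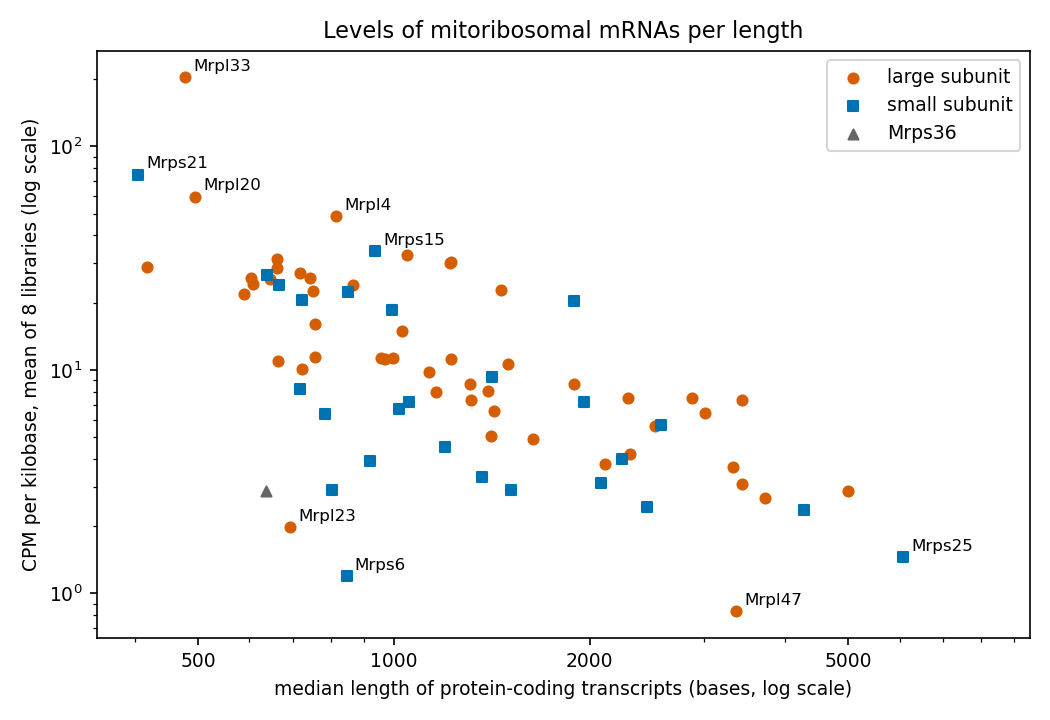
Level of each mitoribosomal mRNA, in CPM per kilobase averaged over 8 libraries, against the median length of its protein-coding transcripts, both on log axes; circles are large subunit genes, squares small subunit genes and the triangle Mrps36. Mrpl33 at 204 and Mrps21 at 74.9 lie at the short end, and Mrpl47 at 0.834 and Mrps25 at 1.45 at the long end.

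Between the times, 65 of the 77 members had a positive log2 fold change for ZT13 over ZT1 and 12 a negative one. Their median was 0.28, with a range from -0.38 (Mrpl37) to 0.93 (Mrps6), while 47.7% of all genes tested had a positive value and the median of all genes was -0.02. With other scalings of the libraries, 62 to 67 members were positive. None of the members passed edgeR's quasi-likelihood test after Benjamini-Hochberg adjustment over all genes (smallest adjusted p = 0.333), and neither did any of the 12610 genes (0%). At an unadjusted p under 0.05, 8 members were higher at ZT13 and 0 lower, against 4.35% and 4.85% of all genes (9.2% in either direction). With DESeq2, 2 members had an adjusted p under 0.05 and were higher at ZT13 (0.341% of all genes): Mrpl18 (adjusted p = 0.0178) and Mrps14 (adjusted p = 0.0188). The 95% interval of the fold change lay within 2-fold in either direction for 62 of the 77 members (54.9% of all genes). Most members therefore had small positive differences, and none passed the edgeR test adjusted over all genes.

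**Figure D2:**
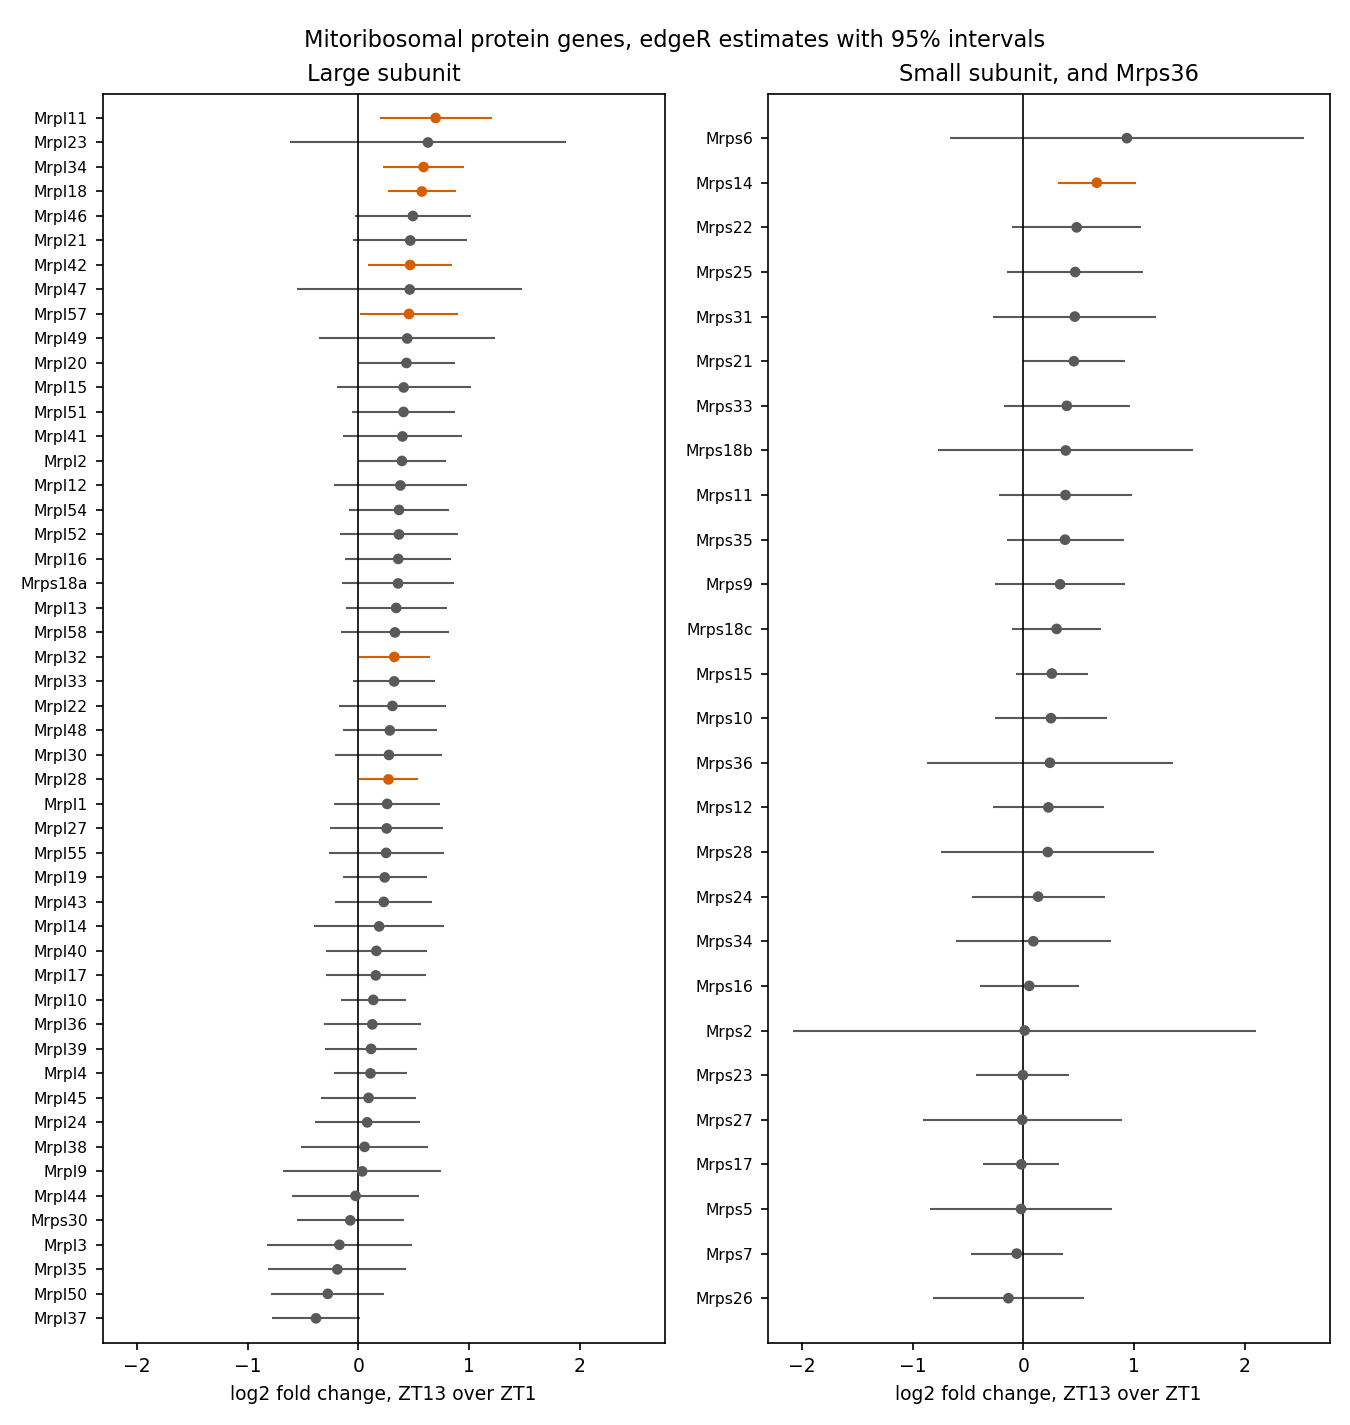
Log2 fold change of ZT13 over ZT1 for each mitoribosomal protein gene with its 95% interval from edgeR, large subunit on the left, small subunit and Mrps36 on the right. Coloured points are the 8 members at an unadjusted p under 0.05, all to the right of 0; none passed after adjustment, and 12 of the 77 members lie to the left of 0.

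Both subunits showed mostly positive differences. Of the 50 large subunit genes, 44 had a positive difference (median 0.30), 7 with an unadjusted p under 0.05. Of the 26 small subunit genes, 20 did (median 0.25), 1 with such a p. Among all genes tested, 4.35% were higher at ZT13 at such a p. The 46 members with a bacterial counterpart (41 positive, median 0.27) and the 30 found only in mitochondria (23 positive, median 0.34) gave like values. The functional regions were small groups. The stalk, which recruits translation factors (Mrpl10, Mrpl11, Mrpl12), had a median of 0.38 with 3 of 3 positive, and the central protuberance, which faces the small subunit, 0.28 with 5 of 5. The peptide tunnel exit (5 of 5, median 0.31), the platform of the small subunit (3 of 3, 0.38) and the proteins near the peptidyl transferase centre and upper tunnel (4 of 5, 0.26) were similar. At the mRNA entry, Mrps24 and Mrps5 gave a median of 0.05 with 1 of 2 positive. Whether subunits or regions differ from each other was not tested.

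Mrpl18, a protein of the central protuberance, had the smallest p. It stood at 29.9, 28.4, 31.2 and 29.1 CPM in ZT1 replicates 1 to 4 and at 42.6, 48.2, 35.6 and 50.0 in ZT13 replicates 1 to 4. Every ZT13 library lay above every ZT1 library, with ZT13 replicate 3 nearest to ZT1. The log2 fold change was 0.57 ± 0.14 (SE; edgeR adjusted p = 0.333). In the annotation, exons of Mrpl18 and of Tcp1 on the opposite strand share bases, and the library type does not keep strand, so reads there cannot be assigned to one of them.

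Mrps14 belongs to the head of the small subunit. Its levels were 28.6, 28.5, 37.9 and 24.0 CPM at ZT1 and 40.6, 48.8, 50.5 and 48.2 at ZT13, again without overlap (log2 fold change 0.66 ± 0.16, edgeR adjusted p = 0.336). Mrpl34, a short protein of the large subunit conserved from bacteria, stood at 10.5, 11.5, 13.6 and 11.6 CPM at ZT1 and at 16.1, 16.6, 18.4 and 19.9 at ZT13. Its groups did not overlap either (0.59 ± 0.16, edgeR adjusted p = 0.403). The promoter stretches of Mrps14 and Mrpl34 printed above hold none of the ETS, NRF1 or YY1 letters.

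Mrpl11, at the base of the stalk, stood at 5.47, 4.38, 6.26 and 5.95 CPM at ZT1 and at 8.49, 7.49, 9.63 and 10.2 at ZT13 (0.70 ± 0.23). Mrpl42, a protein without a bacterial counterpart, stood at 15.5, 15.0, 16.4 and 16.2 CPM at ZT1 and at 20.4, 17.8, 21.5 and 27.6 at ZT13 (0.47 ± 0.17). In both genes the groups did not overlap, and ZT13 replicate 4 was highest. Mrpl28 had 29.4, 29.0, 35.1 and 31.2 CPM at ZT1 and 35.9, 39.7, 37.1 and 37.6 at ZT13 (0.27 ± 0.12). Mrpl32, whose protein is cleaved inside mitochondria before it joins the large subunit, had 16.0, 17.6, 19.6 and 15.5 and then 22.4, 22.5, 20.5 and 20.7 CPM (0.32 ± 0.15). These groups were apart by narrow gaps, with ZT1 replicate 3 the nearest to ZT13 in both. Mrpl57 reached an unadjusted p under 0.05 (0.0457) although its groups overlapped: ZT1 replicate 3 at 21.2 CPM lay above ZT13 replicate 1 at 21.0, and ZT1 replicate 4 was low at 12.8.

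**Figure D3:**
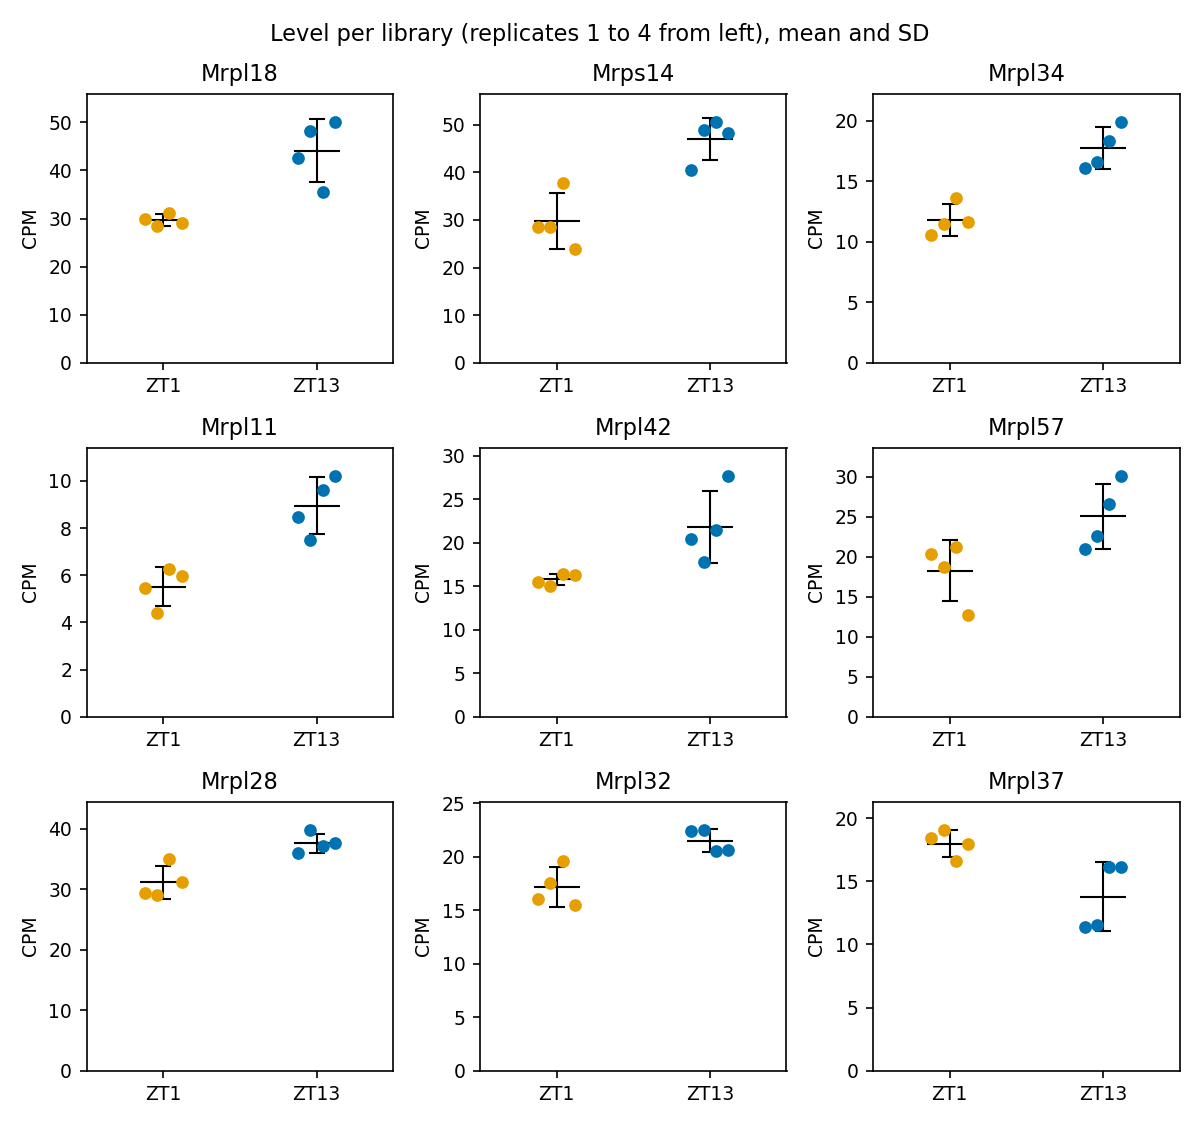
CPM of the 8 members with the smallest p and of Mrpl37 in each library, with the mean and SD of 4 libraries per time point as bars. The ZT13 points lie above all ZT1 points in Mrpl18, Mrps14, Mrpl34, Mrpl11, Mrpl42, Mrpl28 and Mrpl32, overlap them in Mrpl57 and lie below them in Mrpl37.

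Of all members, 9 had every ZT13 library above every ZT1 library (2.66% of all genes tested) and 1 had every ZT13 library below (3.0%). Besides the 7 genes above, the 9 were Mrpl2 (8.21 to 10.4 CPM at ZT1, 11.2 to 13.8 at ZT13), a protein near the peptidyl transferase centre, and Mrps22 (3.78 to 5.53, 5.65 to 7.82). The exception was Mrpl37, a large subunit protein found only in mitochondria. It stood at 18.4, 19.0, 16.6 and 17.9 CPM at ZT1 and at 11.4, 11.5, 16.2 and 16.1 at ZT13. ZT13 replicates 3 and 4 came within 1 CPM of the lowest ZT1 library, and the log2 fold change of -0.38 ± 0.18 had an unadjusted p of 0.0588 (edgeR adjusted p = 0.558). The next lowest estimates were those of Mrpl50 (-0.28 ± 0.23) and Mrpl35 (-0.19 ± 0.28), both with overlapping groups.

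Of the 6 members with the highest mean CPM, Mrps14, Mrpl18 and Mrpl28, described above, did not overlap between the times, and Mrpl33, Mrpl4 and Mrpl10 did. Mrpl33 had 72.8, 96.9, 104 and 71.9 CPM at ZT1 and 96.2, 88.4, 119 and 129 at ZT13 (0.32 ± 0.17), with ZT1 replicates 2 and 3 inside the ZT13 range. Mrps21, a platform protein, had 18.7, 26.3, 33.9 and 23.4 and then 26.7, 34.7, 40.9 and 38.0 CPM (0.46 ± 0.21). Mrpl20 stood at 25.1 ± 5.64 and 33.9 ± 6.55 CPM, and Mrpl4 at 38.1 ± 5.78 and 41.1 ± 4.85. Mrpl10, the scaffold of the stalk and named after its values were seen, had 35.5 ± 1.23 CPM at ZT1 and 38.9 ± 5.24 at ZT13 (0.13 ± 0.13).

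The 3 Mrps18 genes encode variants of 1 bacterial protein. In the split by origin above, however, Mrps18a was counted among the members found only in mitochondria, and Mrps18c among those with a bacterial counterpart. Mrps18a, whose product sits in the large subunit, stood at 14.9 ± 3.92 CPM at ZT1 and 19.0 ± 3.66 at ZT13. Mrps18b and Mrps18c, of the small subunit, stood at 2.03 ± 0.342 and 2.65 ± 1.42, and at 15.3 ± 2.71 and 18.8 ± 2.48 CPM. Per kilobase, Mrps18c (26.7) and Mrps18a (22.5) were thus far above Mrps18b (2.92). Part of the exon bases of Mrps18b also belong to an antisense gene, so its counts may hold reads of both. Mrps36, which carries the family name but is now placed in the oxoglutarate dehydrogenase complex and not in the ribosome, had 1.68 ± 0.127 and 1.98 ± 0.895 CPM.

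The lowest members by CPM, those nearest to the filter, had wide intervals. Mrps6, with the highest estimate of all, stood at 0.695 ± 0.478 CPM at ZT1 and 1.33 ± 0.412 at ZT13 (0.93 ± 0.72), and Mrpl23 at 1.08 ± 0.468 and 1.67 ± 0.273 (0.63 ± 0.56). Mrps2, singled out after its values were seen, had 548, 267, 338 and 397 counts in the ZT1 libraries and 368, 483, 1 and 467 in the ZT13 libraries. The 1 count in ZT13 replicate 3, beside 267 or more elsewhere, left its log2 fold change at 0.01 ± 0.94. It was not alone in that library: 44 genes had at most 3 counts there and at least 100 in each other library, against 17 genes in ZT13 replicate 1, 6 in replicate 4, 1 in replicate 2, and 0 to 1 in the ZT1 libraries. Without ZT13 replicate 3 the value of Mrps2 was 0.42.

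The libraries differed as wholes. The mean log2 CPM of the 77 members was 3.35, 3.38, 3.61 and 3.25 in ZT1 replicates 1 to 4 and 3.61, 3.65, 3.46 and 3.78 in ZT13 replicates 1 to 4, or 3.40 ± 0.15 and 3.62 ± 0.13. ZT1 replicate 3 (3.610) lay just above ZT13 replicate 1 (3.607), so ZT13 replicates 1 and 3 both lay within the ZT1 range. Summed, the members gave 1025, 1060, 1250.0 and 975 CPM at ZT1 and 1231, 1270, 1240.2 and 1433 at ZT13. The mean of the large subunit minus that of the small was 0.59 to 0.70 at ZT1 and 0.62, 0.62 and 0.63 in ZT13 replicates 1, 2 and 4. In ZT13 replicate 3 it was 0.97, the library in which Mrps2 was nearly absent. Leaving out the libraries with 10 or more such nearly absent genes, ZT13 replicates 1 and 3, gave a median member difference of 0.33, with 66 of 77 positive and 9 higher at an unadjusted p under 0.05 (3.33% of all genes). That count was 16 without ZT1 replicate 3 (6.18% of all genes), 4 without ZT1 replicate 2 (2.59%) and 5 without ZT1 replicate 4 (2.23%), and in these 3 cases the share over all genes moved in the same direction.

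**Figure D4:**
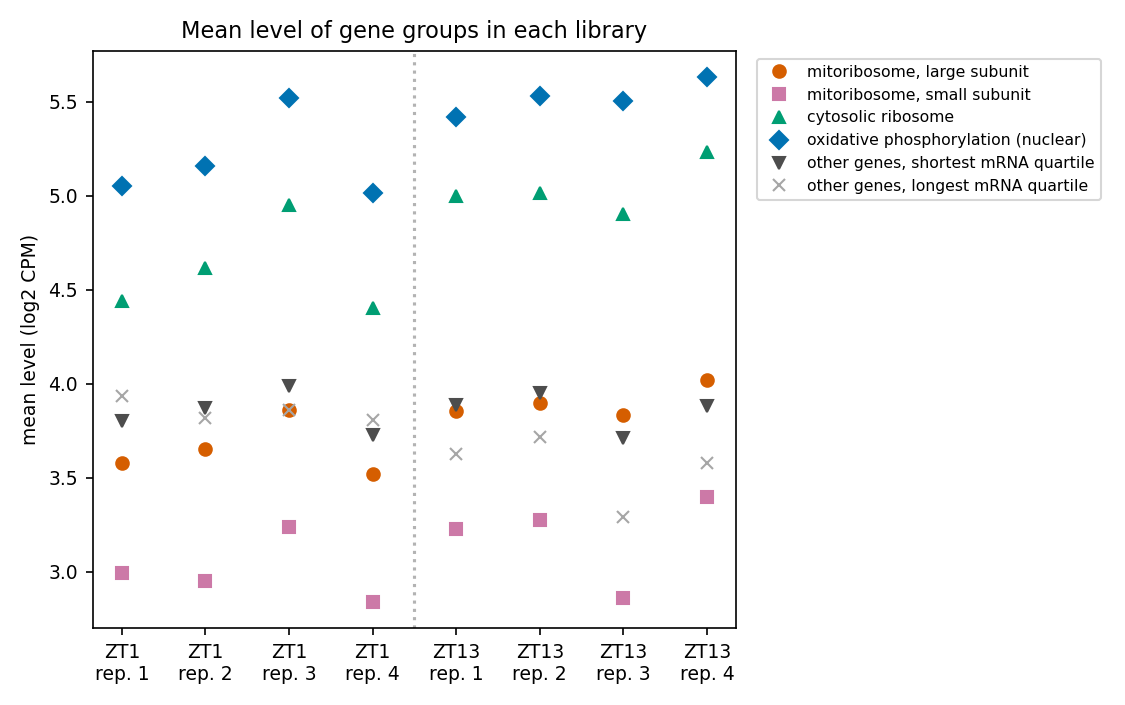
Mean log2 CPM of 6 gene groups in each of the 8 libraries, ZT1 left and ZT13 right of the dotted line. The large subunit stands at 3.52 to 3.86 at ZT1 and 3.84 to 4.02 at ZT13, the small subunit at 2.84 to 3.24 and 2.86 to 3.40; other genes with long mRNAs are lower in every ZT13 library than in every ZT1 library.

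The difference between the times went with mRNA length among genes outside the family. Members have short mRNAs, with a median of 1056 bases against 2111 for all tested protein-coding genes. Among the other genes in the shortest quartile of length (up to 1223 bases) the median log2 fold change was 0.12 and 63.7% were positive, and in the longest quartile the median was -0.10 and 37.5% were positive. Of 43 members in the shortest quartile, 41 were positive with a median of 0.32. The 17, 10 and 7 members of the longer quartiles had medians of 0.09, 0.08 and 0.26, with 13, 6 and 5 positive, beside -0.02, -0.10 and -0.10 for the other genes. In each quartile the median member lay above the median of the other genes. The mean level of the other genes in the shortest minus that in the longest quartile was -0.13 to 0.12 in the ZT1 libraries and 0.24 to 0.42 in the ZT13 libraries, without overlap. How much of the members' difference moves with length, or with the fewer detected genes at ZT13, was not tested.

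**Figure D5:**
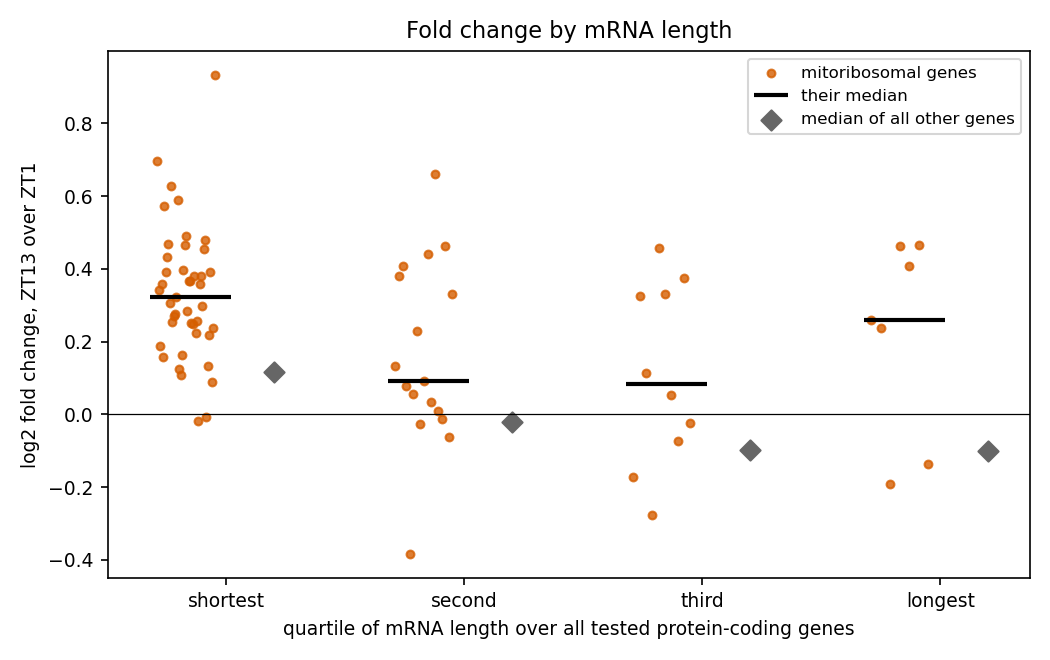
Log2 fold change of ZT13 over ZT1 by quartile of mRNA length. Points are members and bars their medians (0.32, 0.09, 0.08 and 0.26 from the shortest to the longest quartile); diamonds are medians of all other genes (0.12, -0.02, -0.10 and -0.10), below the members in each quartile.

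Members varied together across libraries. The correlation of a member's log2 CPM with the mean of the other members over the 8 libraries had a median of 0.63 (70 of 77 positive), while other genes had a median of -0.03 with the members' mean. After the group means were removed the medians were 0.51 (64 positive) and 0.07. All these points share the same libraries, depth and composition, so the values describe these 8 libraries. Mrpl16 (0.90), Mrps33 (0.88) and Mrpl21 (0.87) followed the family most closely, and Mrpl37 (-0.60) and Mrpl50 (-0.58) ran against it. Outside the family the closest patterns were those of ENSMUSG00000095742 (0.99), Ssr4 (0.98), Churc1 (0.98), Rack1 (0.97) and Rplp1 (0.97), over 8 libraries.

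The genes that work with the mitoribosome differed from each other. Of 5 subunits with other names, 4 were positive (median 0.30), led by Aurkaip1, a small subunit protein, at 57.9 ± 9.67 CPM at ZT1 and 78.3 ± 2.17 at ZT13. Of 27 assembly and rRNA modification factors, 17 were positive (median 0.15). Among these, Malsu1, which keeps the subunits apart during assembly, was higher at ZT13 at an unadjusted p under 0.05 (10.6 ± 2.27 and 15.7 ± 1.83 CPM). Eral1, a chaperone of the small subunit rRNA (16.0 ± 4.02 and 10.9 ± 1.73), and Dhx30, a helicase of RNA granules (30.3 ± 3.63 and 22.4 ± 4.77), were lower at such a p. Over all genes, 9.2% had such a p in either direction. None of these factors passed after adjustment in edgeR.

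Of 15 translation factors, 7 were positive (median -0.18). The initiation factor Mtif3 stood at 9.54 ± 1.44 CPM at ZT1 and 6.09 ± 0.314 at ZT13 (-0.65 ± 0.21), without overlap. The elongation factor Gfm1 and the insertase Oxa1l, which puts new proteins into the inner membrane, went the other way (0.48 ± 0.20 and 0.50 ± 0.21). All 3 had an unadjusted p under 0.05 (9.2% of all genes in either direction). Of 20 aminoacyl-tRNA synthetases 7 were positive (median -0.07) and of 15 genes of mitochondrial DNA transcription and maintenance 7 (median -0.02), none at such a p. Thus the positive median of the mitoribosomal protein genes was not found in the lists of translation factors, synthetases and mitochondrial DNA genes. The lists were not matched for mRNA length, with which differences between the times went above, and its part in this contrast was not tested. The assembly and rRNA modification factors had a positive median (0.15).

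Among 11 regulators of mitochondrial biogenesis, 4 were positive (median -0.17). Mtor, the kinase that promotes translation of mitochondrial protein mRNAs, stood at 11.4 CPM on average at ZT1 and 18.0 ± 2.13 at ZT13 (0.66 ± 0.16, edgeR adjusted p = 0.373, DESeq2 adjusted p = 0.0280). Estimates were lower at ZT13 for Gabpb1, whose product partners GABPA, at 55.2 ± 4.55 and 45.0 ± 5.65 CPM (-0.30 ± 0.13) and for Nrf1 at 66.5 ± 11.0 and 55.1 ± 2.59 (-0.27 ± 0.13), of which Gabpb1 had an unadjusted p under 0.05. The mitochondrially encoded mRNAs are the substrates of the mitoribosome. Only 7 of the 13 were analysed, and 6 of these 7 were positive (median 0.14). The sum of these 7, not of all 13, was 821 ± 104 CPM at ZT1 and 868 ± 31.9 at ZT13, a difference within the spread. mt-Nd2 (15.9 ± 3.11 and 25.6 ± 2.02 CPM, edgeR adjusted p = 0.387, DESeq2 adjusted p = 0.0387), mt-Nd6 and mt-Nd1 were higher at an unadjusted p under 0.05 (4.35% of all genes).

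Larger groups of translation and respiration genes had higher medians than the mitoribosome. Of 79 tested cytosolic ribosomal protein genes, 77 were positive (median 0.45) and 49 had an unadjusted p under 0.05, all higher at ZT13 (4.35% of all genes). For 78 nuclear genes of oxidative phosphorylation the counts were 70 and 34 (median 0.38). Per library, the mean log2 CPM of the cytosolic group was 4.60 ± 0.25 at ZT1 and 5.04 ± 0.14 at ZT13, and that of oxidative phosphorylation 5.19 ± 0.23 and 5.52 ± 0.09. In both groups, as in the mitoribosome, ZT1 replicate 3 was the highest ZT1 library. Whether these groups differ from the mitoribosome was not tested, and they were not matched to it for mRNA length.

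Many members share their start region with another gene. In 26 members a gene on the opposite strand starts within 1000 bases, with an overlap of at most 500, a limit set after values had been seen. Mrpl46 and Mrps11, a large and a small subunit gene, face each other, with starts that overlap by 412 bases. Mrpl46 had 8.41 to 11.1 CPM at ZT1 and 9.46 to 17.9 at ZT13, and Mrps11 4.66 to 8.76 and 7.07 to 10.5 (0.49 ± 0.23 and 0.38 ± 0.27), with overlap in both. Of the other 24 pairs, 18 members but 11 neighbours had a positive difference, with medians of 0.27 and -0.09. Of these neighbours, 5 had an unadjusted p under 0.05 (9.2% of all genes in either direction). Psma2 beside Mrpl32 (0.33) and Fau beside Mrpl49 (0.52) were higher at ZT13. Apba3 beside Mrpl54 (-0.47), Ska3 beside Mrpl57 (-0.73) and Zfp661 beside Mrps5 were lower, the last with no count at ZT13. The sign was shared in 17 of 24 pairs. The libraries do not mark strand, and how reads in overlapping exons were counted is unknown. The 45 members that share no exon base with another gene had a median of 0.28 (39 positive), and the 32 that do 0.27 (26 positive).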

How the data were processed

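RNA from 8 samples was amplified with SMART-Seq v4 and made into unstranded Nextera XT libraries, read as single 50-base reads, per the labels' protocols. The authors deposited raw counts per gene; the submitters' processing notes name build GRCm38, FastQC, Subread 2.0.3 with featureCounts, the aligner STAR 2.7.10b, and DESeq2 1.46.0. The sources used here give neither the annotation release nor the strand setting. Of 23369 identifiers, 22222 matched GENCODE M21 without version; the others held 0.125% of counts.

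Counts were tested with edgeR 4.0.16 (R 4.3.3): filterByExpr (minimum count 10, minimum total count 15), TMM factors, robust quasi-likelihood fits of ZT13 over ZT1, and Benjamini-Hochberg adjustment over all 12610 genes with a threshold of 0.05. CPM values are TMM-scaled, and log2 CPM uses a prior count of 2. SE is the absolute log2 fold change over the square root of F, and intervals are 95%. The biological coefficient of variation was 0.498; the upper limit for a count of 0 (3 counts) corresponds to 0.0414 to 0.0674 CPM, for counting error only.

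Alternatives were DESeq2 1.42.0, limma-voom (limma 3.58.1), other scalings and filters, samples left out, and a replicate block. Members and lists were chosen with earlier results of these data known. Named are the 10 members with the smallest p, 3 most and 2 least abundant per kilobase in each subunit, 3 lowest fold changes, the Mrps18 genes, Mrps36, those nearest the filter, up to 3 genes per other list by p, the 5 closest patterns and the sort markers. Mrps2, Mrps22, Mrpl46, Mrps11, Mrpl10, Mrps33, Mrpl16, Mrpl21, the neighbours at unadjusted p under 0.05 and the promoters shown were named after their values were seen, and region and biological roles come from textbook knowledge.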

Additional observations from a re-analysis of the deposited data

Results flagged for a closer look

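In 62 groups of 4 libraries (the members named by the rule and Mrps2, which was added after its values were seen, each at ZT1 and at ZT13, and summary values of the family), 5 held 1 library far from the other 3; chance does this in about 1 of 20 groups. Mrpl2 stood at 8.21 CPM in ZT1 replicate 2, against 10.2 to 10.4 in the other ZT1 libraries. Mrpl20 stood at 33.4 CPM in ZT1 replicate 3, against 21.0 to 23.1. Mrpl47 reached 5.41 CPM in ZT13 replicate 4, against 2.26 to 2.67. Mrps2 had 8.90 CPM in ZT1 replicate 1, against 5.48 to 5.74. The mean log2 CPM of the large subunit minus that of the small was 0.97 in ZT13 replicate 3, against 0.62 to 0.63 in the other ZT13 libraries.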

How the results depend on the processing

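The median log2 fold change of the members stayed positive in all 18 alternatives, from 0.21 to 0.38 with 1 library left out and from 0.23 to 0.33 otherwise. The count of members higher at ZT13 at an unadjusted p under 0.05 (8) went from 4 to 16 with 1 library left out and from 6 to 11 otherwise. The share of all tested genes called higher was 4.35% in the main test. It went from 2.23% to 6.18% with 1 library left out and from 2.97% to 6.85% otherwise. The count lower at ZT13 (0) was 1 with library totals, 1 with limma-voom and 0 to 1 with 1 library left out. Adjusted calls numbered 2 with DESeq2 and 0 in the other alternatives. Members whose groups do not overlap (10, beside 2.66% of all genes higher and 3.0% lower at ZT13) numbered 10 to 19 with 1 library left out. They were 18 without ZT1 replicate 3, 16 without ZT13 replicate 1 and 19 without ZT13 replicate 3. Fewer libraries make separation easier. The shares of all genes whose groups do not overlap are not given for these settings, so the larger counts cannot be read as a result about the members. Over all genes, 47.2% of those at an unadjusted p under 0.05 were higher at ZT13, 34.0% with library totals, 32.1% without a filter, 55.3% with upper-quartile factors, 56.0% with 5 or more CPM in 4 samples (68 members tested) and 33.8% to 53.5% with 1 library left out. Same-numbered samples did not deviate together (correlations from -0.04 to 0.05 over title and library numbers), so numbers were not taken as pairs. With a replicate block the count of higher members was 7 by title numbers (3.28% of all genes) and 8 by library names (4.35%). Some estimates near 0 changed sign; the cause was not tested. Mrps2 was -0.045 with library totals, -0.012 without a filter, -1.57 with limma-voom, -0.59 and -1.35 with the blocks, and -0.32 to 0.42 with 1 library left out. Mrps36 was -0.16 with the block by library names and -0.057 to 0.47 with 1 library left out, Mrpl35 0.027 without ZT13 replicates 1 and 3 (an alternative chosen after seeing the data), and Itgam -0.043 with library totals, -0.0020 without a filter and -0.0054 to 0.035 with 1 library left out. Apart from Mrps2, with 1 count in 1 library, the lowest counts in any library were those of Mrps6 (14), Mrpl23 (28), Mrps18b (43) and Mrps36 (46).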
